A study of Mus musculus with 3 samples.

Results

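The genes described here are 10 kinase and ubiquitin ligase genes of the Hedgehog pathway, each with an assigned differential 5-hydroxymethylcytosine (5hmC) region. They are not all such genes, and others with a region, such as Dyrk2, Rbx1 and Spopl, are counted further below. The 10 are Csnk1g1, Csnk1g3, Csnk1a1, Prkaca, Adrbk1, Adrbk2, Btrc, Cul1, Smurf1 and Spop. They were chosen by their FA0 and FA4 read counts as much as by their role, since a gene enters only where a region with differing counts carries its symbol in the whole-genome tables. Each region was counted once per gene. They held 27 of the 19817 distinct regions in these tables. All 27 were listed because their read counts differed between the libraries compared, so the counts and ratios below describe the regions and are not a test of them.

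Mouse embryonic stem cells of the Sv129 line were grown without added folate (0 mg/L, FA0) or with normal folate (4 mg/L, FA4). Both media were otherwise Dulbecco's modified Eagle's medium with fetal bovine serum, and how long cells were kept without folate is not given in the sources used here. DNA fragments carrying 5hmC were immunoprecipitated and sequenced (hMeDIP-seq), with 1 FA0 library and 1 FA4 library, and an FA0 input was not used here. With 1 library per condition there is no replicate error, and every comparison is between these libraries. The label of embryonic stem cells was not checked, since the assay reads a DNA mark and not marker RNA.

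5hmC is made from methylated cytosine by TET enzymes, mostly at CpG, and it is known from active gene bodies, enhancers and the flanks of CpG-rich promoters. In the Hedgehog pathway, the activity of Gli transcription factors is set by phosphorylation and proteolysis. Without ligand, protein kinase A and casein kinases phosphorylate Gli proteins, and the SCF ubiquitin ligase built on Cul1 with the substrate adaptor encoded by Btrc then marks them for processing. With ligand, casein kinases and G protein-coupled receptor kinases phosphorylate the signal transducer Smo. Spop recruits Gli proteins to another ubiquitin ligase, and Smurf1 is known to act on the receptor Ptch1.

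The start-site windows of 3 genes are printed because they stand for the arrangements seen below. Smurf1 had FA0-higher regions on both sides of its start site, Csnk1g1 had an FA0-higher region upstream and FA4-higher regions in introns, and Spop had FA4-higher regions in introns alone. Each window runs from 250 bases before to 50 bases after the start, on the gene's strand, from RefSeq on GRCm38.p6, the assembly also called mm10. Capitals mark CG, the usual target of methylation and 5hmC.
Smurf1: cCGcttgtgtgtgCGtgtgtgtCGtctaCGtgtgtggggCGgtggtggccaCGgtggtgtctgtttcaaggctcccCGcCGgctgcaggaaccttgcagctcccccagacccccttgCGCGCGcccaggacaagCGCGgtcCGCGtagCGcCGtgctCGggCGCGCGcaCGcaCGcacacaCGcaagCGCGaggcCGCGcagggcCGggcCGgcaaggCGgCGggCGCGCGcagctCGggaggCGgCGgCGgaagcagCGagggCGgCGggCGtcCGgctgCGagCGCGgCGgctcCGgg
Csnk1g1: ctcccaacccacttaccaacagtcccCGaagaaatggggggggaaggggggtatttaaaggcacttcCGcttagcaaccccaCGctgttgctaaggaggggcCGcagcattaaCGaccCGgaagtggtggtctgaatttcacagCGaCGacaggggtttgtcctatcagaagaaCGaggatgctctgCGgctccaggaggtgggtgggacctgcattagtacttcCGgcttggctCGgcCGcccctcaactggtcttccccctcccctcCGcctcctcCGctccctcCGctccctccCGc
Spop: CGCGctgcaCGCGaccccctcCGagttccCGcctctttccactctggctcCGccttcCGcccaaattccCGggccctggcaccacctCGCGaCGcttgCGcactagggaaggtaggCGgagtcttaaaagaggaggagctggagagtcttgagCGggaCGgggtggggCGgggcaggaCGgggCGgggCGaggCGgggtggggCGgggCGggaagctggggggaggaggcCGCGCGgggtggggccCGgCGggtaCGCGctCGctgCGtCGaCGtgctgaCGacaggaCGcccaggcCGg

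The Smurf1 window (chr5:144965781-144966080, minus strand) held 49 CG, the Spop window (chr11:95413833-95414132, plus strand) 37 CG, and the Csnk1g1 window (chr9:65908760-65909059, plus strand) 17 CG. The median over 32851 windows in the RefSeq table was 7 CG, and 99.1% of windows held no more CG than that of Smurf1. In all, 5 of the 10 genes had a window in the table, with 8 windows between them, since Cul1 has 3 and Prkaca has 2. Csnk1g3, whose promoter region reached over its start site, was not among the 5. None of the 27 regions reached into any of the 8 windows. The nearest was the Prkaca promoter region, 152 bp away from the window of the second Prkaca start, followed by the Smurf1 promoter region, 340 bp away. Neither the Gli core GACCACCCA nor the cAMP response element TGACGTCA, each searched on both strands, was in any of the 8 windows. Over all windows 0.253% held GACCACCCA and 1.79% held TGACGTCA, which itself contains a CG.

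FA0 had the higher count in 12 of the 27 regions, a share of 44.4% (25.5% to 64.7%), and FA4 in the other 15. The share over all listed regions was 38.9%, inside that interval. All intervals given are exact, at the 95% level, and cover counting error alone, since each condition has 1 library. PCR copies of a molecule may count as several reads, so intervals of read ratios may be too narrow even for counting error. Regions of both directions were assigned to 6 genes, namely Csnk1g1, Csnk1g3, Btrc, Smurf1, Adrbk1 and Adrbk2. For Csnk1g1 and Adrbk1 this rests on a region that lay inside another gene, and 4 genes had both directions without these regions. For Csnk1g3 it rests on intergenic regions beyond the 3' end, since all its FA4-higher regions lay there. Prkaca and Cul1 had 1 FA0-higher region each, Csnk1a1 had 1 FA4-higher region and Spop had 3. Mixed directions were common in genes with several regions. Of all symbols with 2 or more regions 52.5% had both directions. The shares were 38.5% with 2 regions, 56.2% with 3, 67.8% with 4 and 71.9% with 6. The counts of Csnk1g3, 3 regions in each direction, were shared by 24 other symbols and those of Smurf1 by 79, while 146 shared those of Btrc and 275 those of Csnk1g1. The pattern of Adrbk1 and Adrbk2 was shared by 800 others, a single FA0-higher region by 2482 and a single FA4-higher region by 2503.

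**Figure D1:**
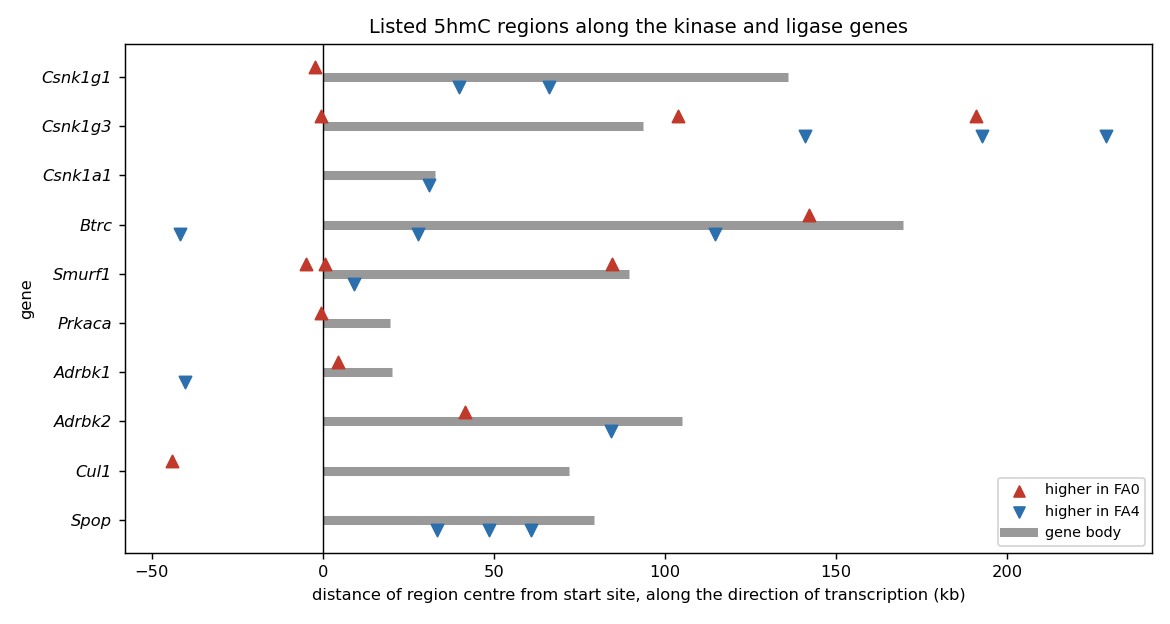
Position of the 27 listed regions along the 10 genes, as the distance of each region's centre from the start site in kb in the direction of transcription. Red triangles are regions higher in FA0, blue inverted triangles regions higher in FA4, and grey bars gene bodies. FA0-higher regions stand at or next to the start of Csnk1g1, Csnk1g3, Smurf1, Prkaca and Adrbk1, and the FA4-higher region nearest to any start is that of Smurf1 at 9.02 kb.

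The casein kinase 1 gamma genes encode membrane-anchored kinases, and Csnk1g3 had the most regions of the 10 genes. Its promoter region (chr18:53860841-53862340), centred 522 bp before the start site and reaching over it, held 28.9 normalized counts in FA0 and 6.06 in FA4, from 25 and 7 reads. The FA0 over FA4 ratio was 4.76 (2.00 to 13.0), the lowest among the 8 FA0-higher regions that held any FA4 read. No other region overlapped the 93.6-kb gene body. The other 5 regions lay beyond the 3' end, between 9.76 and 134.7 kb from the gene, in sequence where Csnk1g3 was the nearest protein-coding gene. Of these, 2 were FA0-higher and 3 were FA4-higher, and each was empty in the other library.

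The FA0-higher pair of that stretch held 11 FA0 reads at 103.8 kb from the start (chr18:53965441-53966400) and 19 FA0 reads at 190.8 kb (chr18:54052461-54053320), against 0 FA4 reads in both. Where a library held 0 reads, the fold is taken against a floor of 3 reads in it, and the error of the other library's count is not part of it. On this scale FA0 was at least 4.89-fold and at least 8.445-fold higher. The FA4-higher regions held 0 FA0 reads against 21, 14 and 16 FA4 reads at 140.8, 192.6 and 228.8 kb, so FA0 was at least 5.25-fold, 3.50-fold and 4.00-fold lower. The strongest of them (chr18:54002161-54003640, at 140.8 kb) had 0 normalized counts in FA0 and 18.2 in FA4. The regions at 190.8 and 192.6 kb went in opposite directions with 1160 bp between them. This was the smallest such gap among the 27 regions, and 2 of them, this pair, had it. Over all listed regions 1.08% had a region of the other direction as close as this. Because the gap was picked as the smallest, that share does not measure how unusual the pair is.

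Csnk1g1 had 1 FA0-higher and 2 FA4-higher regions. The FA0-higher one (chr9:65906321-65907000, classed upstream, 2.35 kb before the start) held 17.3 normalized counts in FA0 and 0.87 in FA4, from 15 reads and 1 read, a ratio of 20 (3.08 to 842). It lay inside the annotated body of Trip4, the gene next to Csnk1g1, so the mark cannot be placed with Csnk1g1 from position alone. Both FA4-higher regions were intronic, at 39.8 and 66.2 kb, with 0 FA0 reads against 14 and 15 FA4 reads. The stronger one (chr9:65974761-65975700) had 0 normalized counts in FA0 and 13.0 in FA4, so FA0 was at least 3.75-fold lower. The intronic pair lay at 29.3% and 48.7% of the 136-kb gene. Csnk1a1, which encodes casein kinase 1 alpha, had a single region (chr18:61585801-61587400), intronic and near the 3' end at 94.8% of the gene. It held 0 normalized counts in FA0 and 16.5 in FA4, or 0 and 19 reads, so FA0 was at least 4.75-fold lower.

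Prkaca encodes the main catalytic subunit of protein kinase A, the chief negative regulator of Gli activity. Its only region (chr8:83976081-83976480) held 21.9 normalized counts in FA0 and 2.60 in FA4, from 19 and 3 reads, a ratio of 8.44 (2.49 to 44.6). At 47.5 FA0 reads per kb it was the densest of the 27 regions. The tables class it as promoter because it lies 802 to 403 bp before a second, internal start site. Counted from the first annotated start of Prkaca it lay 3.10 to 3.50 kb downstream, inside the gene. The class of this region thus depends on which start is taken.

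Adrbk1 and Adrbk2, now named Grk2 and Grk3, encode closely related G protein-coupled receptor kinases that phosphorylate active receptors. Each had 1 region of either direction, and the FA0-higher one was intronic in both. In Adrbk1 it lay 4.34 kb from the start (chr19:4301601-4302160) with 18.5 normalized counts in FA0 and 1.73 in FA4, from 16 and 2 reads, a ratio of 10.7 (2.51 to 95.6). In Adrbk2 it lay 41.6 kb from the start (chr5:112973501-112974400) with 26.6 normalized counts in FA0 and 5.20 in FA4, from 23 and 6 reads, a ratio of 5.11 (2.02 to 15.4). The intervals of both ratios overlapped.

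The FA4-higher regions of the pair each held 0 FA0 reads against 13 FA4 reads, which is 0 and 11.3 normalized counts. That of Adrbk2 was intronic, 84.1 kb from the start (chr5:112931221-112931600). The one assigned to Adrbk1 (chr19:4345961-4346720) was classed intergenic, 40.1 kb before its start, but lay inside the annotated body of Kdm2a, which encodes a histone demethylase. In both, FA0 was at least 3.25-fold lower.

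Cul1 is the scaffold of SCF ubiquitin ligases. Its only region (chr6:47409781-47410540) was intergenic, 44.2 kb before the start, and no region was listed in its 72.4-kb gene body. It held 11.6 normalized counts in FA0 and 0 in FA4, or 10 and 0 reads, at least 4.45-fold higher in FA0. No FA0-higher region in the tables held fewer FA0 reads. Btrc, the adaptor that binds phosphorylated Gli and beta-catenin, had 1 FA0-higher and 3 FA4-higher regions. The FA0-higher one lay in an intron at 83.7% of the 169.7-kb gene (chr19:45505481-45506020) and held 18.5 normalized counts in FA0 and 0 in FA4, or 16 and 0 reads, at least 7.11-fold higher in FA0. The FA4-higher ones lay 41.6 kb before the start and, in introns, at 27.7 and 114.7 kb, with 0 FA0 reads in each against 16, 16 and 13 FA4 reads. The stronger pair (chr19:45321781-45322540 and chr19:45391041-45391840) had 0 normalized counts in FA0 and 13.9 in FA4 each, so FA0 was at least 4.00-fold lower in both.

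Smurf1 encodes a HECT-type ubiquitin ligase also known for acting on BMP signalling and planar polarity proteins, and it had 3 FA0-higher regions and 1 FA4-higher region. Its promoter region (chr5:144964901-144965440) ran from 390 to 929 bp downstream of the start site printed above, and held 20.8 normalized counts in FA0 and 1.73 in FA4, from 18 and 2 reads. The ratio was 12.0 (2.87 to 106.6), and the density was 33.3 FA0 reads per kb against 3.70 FA4 reads per kb. The upstream region (chr5:144970441-144971140), 4.96 kb before the start, held 17.3 normalized counts in FA0 and 0.87 in FA4, from 15 reads and 1 read, a ratio of 20 (3.08 to 842). The start of Smurf1 thus lay between FA0-higher regions, with the CG-rich window itself free of any listed region.

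The other Smurf1 regions were intronic and differed in direction. Near the 3' end, at 94.7% of the gene (chr5:144880821-144881660), 21.9 normalized counts in FA0 stood against 2.60 in FA4, from 19 and 3 reads, a ratio of 8.44 (2.49 to 44.6). At 9.02 kb from the start (chr5:144956461-144957160), 1.15 normalized counts in FA0 stood against 17.3 in FA4, from 1 read and 20 reads, a ratio of 0.0667 (0.00161 to 0.417). This was the only FA4-higher region of the 10 genes with any FA0 read. It lay 7.74 kb from the promoter region of the opposite direction.

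Spop, the adaptor that recruits Gli proteins for degradation, had 3 regions, all intronic and all FA4-higher. They lay at 33.5, 48.5 and 61.0 kb from the start, or 42.2%, 61.2% and 76.9% of the 79.3-kb gene. The first (chr11:95447121-95447960) held 0 normalized counts in FA0 and 20.8 in FA4, or 0 and 24 reads, and FA0 was at least 6-fold lower. The others held 0 FA0 reads against 15 and 13 FA4 reads, so FA0 was at least 3.75-fold and 3.25-fold lower. The nearest FA0-higher region of any gene was 152.1 kb from the first. Of the other symbols in the tables, 273 had the same counts, 0 FA0-higher and 3 FA4-higher regions.

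**Figure D2:**
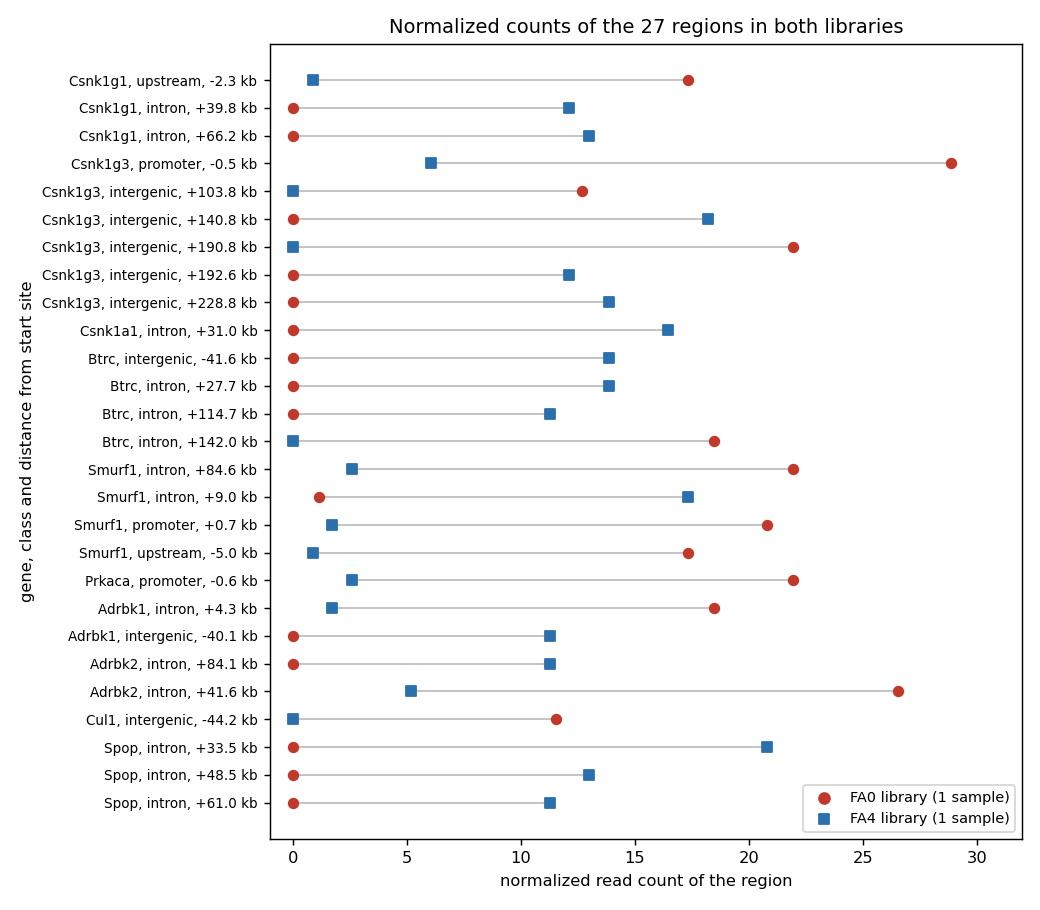
Normalized read count of each of the 27 regions in the FA0 library (red circles) and the FA4 library (blue squares), with 1 sample per condition and so no error bars. Each row is a region named by gene, class and distance from the start site, and a grey line joins its values. In 14 of the 15 FA4-higher regions the FA0 library stands at 0, and in 4 of the 12 FA0-higher regions the FA4 library stands at 0.

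Across the 10 genes, FA0-higher regions held a median of 17 FA0 reads, with a range from 10 to 25, and FA4 read counts from 0 to 7. FA4-higher regions held FA0 read counts of 0 or 1 against a median of 15 FA4 reads, with a range from 13 to 24. The FA4 library was empty in 33.3% of FA0-higher regions, near the 32.4% over all listed FA0-higher regions, and the FA0 library was empty in 93.3% of FA4-higher regions, where the share over all was 81.1%. The fewest reads with which a region could be listed against an empty library were 10 in FA0 and 13 in FA4. The Cul1 region stood at the first limit. A further 4 FA4-higher regions stood at the second, those of Btrc at 114.7 kb, Adrbk1, Adrbk2 and Spop at 61.0 kb. Regions outside the limits were not analysed here. Because regions were listed for a large difference, the ratios tend to be too large.

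By class, all 3 promoter regions and both upstream regions of the genes were FA0-higher. Of the 14 intron regions 4 were FA0-higher, and of the 8 intergenic regions 3 were. No exon region was assigned to the genes, and 427 of the 19817 listed regions were exon regions, 62.5% of them FA0-higher. The FA0-higher share was 100% at promoters (29.2% to 100%) against 61% of all promoter regions, and 100% upstream (15.8% to 100%) against 46.8% of all upstream regions. It was 28.6% in introns (8.39% to 58.1%) against 43.4% of all intron regions, and 37.5% in intergenic sequence (8.52% to 75.5%) against 30.8%. In each of the 4 classes the interval for the genes held the share over all regions.

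**Figure D3:**
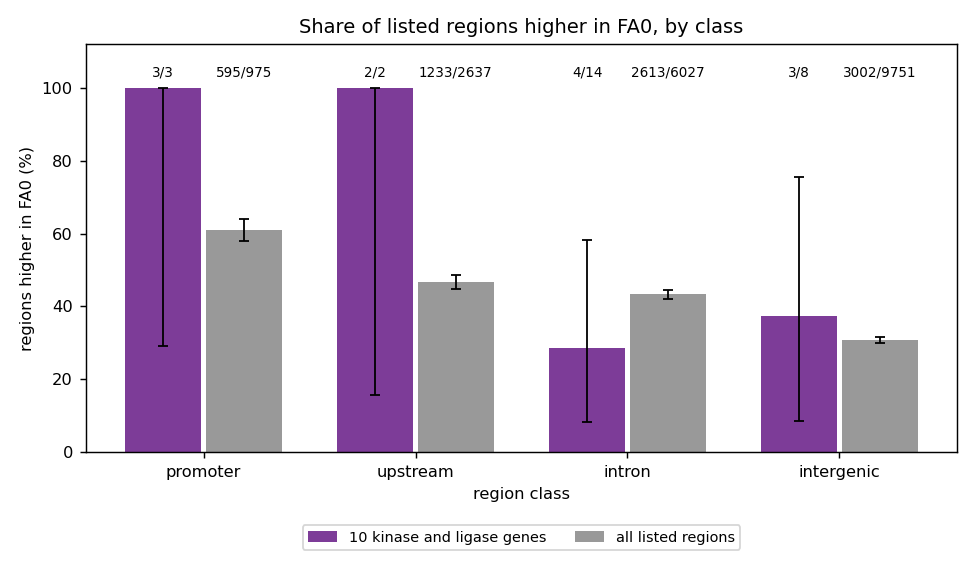
Share of listed regions higher in FA0 in percent, by region class, for the 10 genes (purple) and all listed regions (grey). Error bars are exact 95% intervals for counting error, and the numbers above give FA0-higher regions over all regions of the class. The purple intervals reach from 29.2% to 100% at promoters and from 8.39% to 58.1% in introns, and each holds the grey share.

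Measured from the start site, 6 of the 12 FA0-higher regions were centred within 5 kb, those of Csnk1g1, Csnk1g3, Prkaca and Adrbk1 and a pair at Smurf1. These include all promoter and upstream regions of the genes, so the count largely restates the classes above. The Csnk1g1 region lay inside Trip4. Over all listed FA0-higher regions the share within 5 kb was 15.3%. None of the 15 FA4-higher regions of the genes lay that close, where 7.68% of all FA4-higher regions did. The 5-kb limit was chosen after the positions had been seen. The median distance was 23.3 kb for the FA0-higher and 48.5 kb for the FA4-higher regions of the genes, and over all listed regions it was 28.1 kb for FA0-higher and 63.2 kb for FA4-higher ones. FA0-higher regions of the genes had a median length of 730 bp and FA4-higher ones of 800 bp, where over all regions FA0-higher ones had a median of 760 bp and FA4-higher ones of 1080 bp.

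Regions assigned to other genes lay near all 10 genes. Over all listed regions 38.9% were FA0-higher, so FA4-higher regions are the more numerous in general. On the chromosomes of the genes the FA0-higher share ran from 32.3% (chromosome 8) to 51.6% (chromosome 11). The counts below are small and were not tested against these shares. Within 500 kb of Csnk1a1, whose region was FA4-higher, 8 regions assigned to other genes were FA0-higher and 1 was FA4-higher. Around Cul1, whose region was FA0-higher, 4 were FA0-higher and 10 were FA4-higher. FA0-higher regions were the more numerous near Adrbk2 (12 FA0-higher, 2 FA4-higher), Adrbk1 (8 FA0-higher, 3 FA4-higher), Prkaca (10 FA0-higher, 6 FA4-higher) and Csnk1g3 (4 FA0-higher, 0 FA4-higher). FA4-higher regions were the more numerous near Spop (3 FA0-higher, 6 FA4-higher), Smurf1 (3 FA0-higher, 5 FA4-higher) and Csnk1g1 (5 FA0-higher, 7 FA4-higher), and near Btrc there were 4 of each. The listed regions that overlapped the bodies of the 10 genes were all assigned to those genes. These bodies held 16 region centres in 0.825 Mb, a figure that the choice of genes with regions raises, against 8.64 per Mb over all protein-coding genes.

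**Figure D4:**
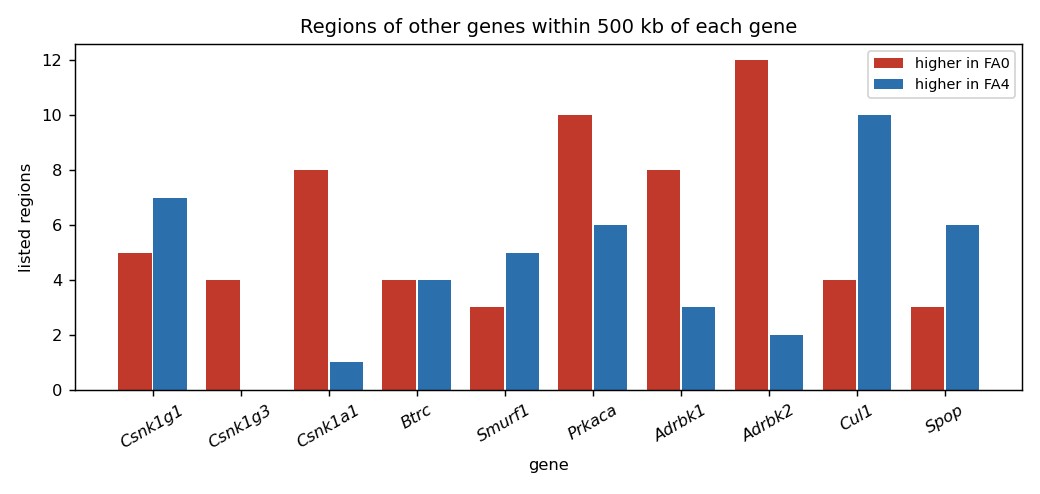
Number of listed regions assigned to other genes within 500 kb of each of the 10 genes, with FA0-higher regions in red and FA4-higher regions in blue. Counts run from 0 FA4-higher regions near Csnk1g3 to 12 FA0-higher regions near Adrbk2. Over all listed regions 38.9% were FA0-higher.

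Other call rules were applied to the same counts that chose the regions, so passing one is no independent evidence. On reads, a binomial test with exact p at the authors' scaling kept 10 of the 12 FA0-higher regions, all but those of Adrbk1 and Cul1, where 74.6% of all FA0-higher regions passed. It kept 3 of the 15 FA4-higher regions, those of Csnk1a1, of Spop at 33.5 kb and of Csnk1g3 at 140.8 kb, where 26.2% of all FA4-higher regions passed. With a likelihood-ratio p of 1e-05, 2 FA0-higher and 3 FA4-higher regions passed, none of them a promoter region, where 25.8% of all FA0-higher and 23.6% of all FA4-higher regions did. A minimum of 20 normalized counts in the higher library left 6 FA0-higher regions, all 3 promoter regions among them, and 1 FA4-higher region, where it left 43.2% of all FA0-higher and 10.6% of all FA4-higher regions. A fold of 4 with a pseudocount of 1 kept all 27, and 94.7% of all FA0-higher and 99.2% of all FA4-higher regions.

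With unscaled reads, by an exact binomial test against equal shares, 2 FA0-higher and 9 FA4-higher regions passed, none of them a promoter region. The same rule passed 9.4% of all FA0-higher and 55.9% of all FA4-higher regions. It changes the test as well as the scaling, while the 25% scalings keep the likelihood-ratio test. With FA4 scaled up by 25% 2 FA0-higher and 15 FA4-higher regions passed, again without a promoter region, where 29% of all FA0-higher and 100% of all FA4-higher regions passed. With FA0 scaled up by 25% 12 FA0-higher and 8 FA4-higher regions passed, where 100% of all FA0-higher and 43.7% of all FA4-higher regions passed. The Csnk1g3 region at 190.8 kb and the Spop region at 33.5 kb passed under each of the 7 other rules and scalings. The Btrc intron region at 142.0 kb, Csnk1a1 and Csnk1g3 at 140.8 kb passed all but the minimum of 20 counts. Scaling up the library that was already higher could remove no region, so passing it carries no information.

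Other genes of the pathway were counted from lists written with earlier results of these data known. Of 25 other kinases, ligases and regulators, 4 had a region, with 2 FA0-higher and 8 FA4-higher regions. The FA0-higher share was 20% (2.52% to 55.6%), an interval that holds the 38.9% over all listed regions. Adcy6, an adenylyl cyclase gene, held both FA0-higher ones, in its promoter and an intron. Spopl, the paralogue of Spop, held 4 FA4-higher regions and no FA0-higher one, and Rbx1, which encodes the RING subunit of cullin ligases, and Dyrk2, a kinase gene, held 2 FA4-higher regions each. No region in the tables used here carried the symbols of the paralogues Csnk1g2, Prkacb, Fbxw11, Smurf2, Csnk1d and Csnk1e, or of Gsk3b and Cul3. Of 23 ligand, receptor and Gli genes 14 had a region, with 19 FA0-higher and 18 FA4-higher regions, a share of 51.4% (34.4% to 68.1%). The share of the 10 genes, 44.4%, lay inside that interval, and so did the 38.9% over all listed regions. All 3 promoter regions of that list were FA0-higher, where 61% of all promoter regions were. In all, 9293 symbols had a region, but their share of all genes was not computed. The 4 of 25 and 14 of 23 genes with a region thus have no base beside them. Nothing is read from the difference between them.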

How the data were processed

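5hmC was measured by hMeDIP-seq in 1 FA0 and 1 FA4 library of Sv129 cells. For tools and build, the submitters' processing notes list Bowtie2 2.2.4, cutadapt 1.9.1 and mm10. Which program called the differential regions is not given in the sources used here. Kits and fragment sizes in the labels differ from those in the study's methods. The authors deposited 4 tables of regions, for each direction over the whole genome and at promoters, with a normalized read count per library, a signal that is the reads times 1 factor (1.15 in FA0, 0.866 in FA4). Divided by that factor, every value came within 0.00574 of a whole read, where 0.02 was tolerated, and the whole reads were used. The authors' fold, p-value and FDR columns hold their own comparison and were not used, nor were 8 columns of averages. A likelihood-ratio test of equal normalized counts gave p of at most 9.86e-05 and a fold, with 0.1 added, of at least 2.01 in every listed region.

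Direction was read from the normalized counts. Ratios are FA0 over FA4 with exact conditional binomial intervals, and shares have Clopper-Pearson intervals, both at 95%. The genes' regions were chosen by this contrast, so tests on their counts serve only as alternative call rules and are no evidence for a difference. All 10 genes are named, with all promoter and upstream regions and the strongest region per gene and direction in full. The genes and lists were chosen with earlier results of these data known. Coordinates are mm10. Annotation came from the RefSeq table of GRCm38.p6, the same assembly, where 8 symbols matched as written and 2 by synonym. Library totals were not used: listed regions held 144823 FA0 and 239268 FA4 reads, which are not the depth. Alternatives were stricter and exact call rules, other scalings, merging, rows, and assignment by position. Runs without chromosome 8 and without 2 regions inside another gene were added after seeing the data. Scripts were tested on simulated data, run under Python 3.11.15 with scipy 1.17.1, pandas 2.3.3, numpy 2.4.6 and matplotlib 3.10.9. Sequence was used for RefSeq start-site windows alone, and the sequences of the 27 regions were not read.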

Additional observations from a re-analysis of the deposited data

How the results depend on the processing

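As reported, the genes held 12 FA0-higher and 15 FA4-higher regions, with 3 FA0-higher and 0 FA4-higher at promoters and 4 FA0-higher and 10 FA4-higher in introns, and 6 genes had both directions. With the likelihood-ratio test at p of 1e-05 2 FA0-higher and 3 FA4-higher regions passed, with 0 FA0-higher promoter regions, 1 FA0-higher and 2 FA4-higher intron regions, and 1 gene with both directions. With the exact binomial test 3 FA4-higher regions passed, 2 of them intronic, and 1 gene kept both directions. With at least 20 normalized counts 6 FA0-higher regions were left, 2 of them intronic, and 1 FA4-higher region, 1 of 1 intronic, and 0 genes had both directions. With unscaled reads, by an exact binomial test against equal shares, 2 FA0-higher and 9 FA4-higher regions were left. Among them were 0 FA0-higher promoter regions and 1 FA0-higher and 6 FA4-higher intron regions, and 2 genes had both directions. With FA0 scaled up by 25%, 8 FA4-higher regions were left, 5 of them intronic, and 3 genes had both directions. With FA4 scaled up by 25%, 2 FA0-higher regions were left, 0 at promoters and 1 in an intron, and 2 genes had both directions. Counted as rows, 1 per region and transcript, there were 20 FA0-higher and 27 FA4-higher, with 10 FA0-higher and 18 FA4-higher in introns, since transcripts of a gene repeat its regions. A fold of 4 with a pseudocount of 1 and merging within 1000 bp changed no count. The gene body with 5000 bp upstream left 9 FA0-higher and 10 FA4-higher regions. Here 4 genes had both directions, namely Csnk1g1, Btrc, Smurf1 and Adrbk2. Without the regions inside Trip4 and Kdm2a, 11 FA0-higher and 14 FA4-higher regions were left. The 4 genes with both directions were then Csnk1g3, Btrc, Smurf1 and Adrbk2. Only Btrc, Smurf1 and Adrbk2 had both directions under both of these limits. Without chromosome 8, 11 FA0-higher regions were left, 2 of them at promoters, and 6 genes had both directions. Apart from the rows, these settings can remove listed regions and cannot add any. No paired analysis was possible because each condition has 1 library, and for the same reason no replicate could be left out. The 27 regions held 25 reads or fewer in the higher library, so the counting intervals are wide. The depth of the libraries is not known here, and no replicate error can be given.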
